A study of Homo sapiens with 36 samples.

Results

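The 8 chemokine genes CCL3, CCL4, CCL5, CCL17, CCL22, CXCL9, CXCL10 and CXCL16, which activated B cells can express and secrete, were followed through 36 RNA-seq libraries of B-cell lines exposed to anti-leukaemic drugs. They were chosen by gene symbol, and all 8 were among the 37549 gene symbols of the count table. The libraries came from 3 B-cell lines that serve as cell models of chronic lymphocytic leukaemia (CLL), each a single established line. MEC1 cells, which carry mutated p53, were exposed for 48 h, JVM2 cells with wild-type p53 for 72 h and EHEB cells with wild-type p53 for 96 h, so that effects of the line and of its exposure time cannot be told apart. In each line 3 libraries received the vehicle DMSO, 3 received 50 µM fludarabine, a purine analogue that blocks DNA synthesis, 3 received 5 µM ibrutinib, an inhibitor of Bruton tyrosine kinase, and 3 received 10 µM idelalisib, an inhibitor of the delta isoform of phosphoinositide 3-kinase. The 3 libraries of a group are numbered 1 to 3 in the order of the numbers in their titles. The ibrutinib and idelalisib libraries carry numbers from a separate series with no DMSO library in it, so what a kinase inhibitor did and what separates the number series cannot be told apart. The paper says in general that results outside its glucuronidation assays come from 3 or more independent experiments. Neither it nor the labels say whether the 3 libraries of a group were separate cultures, and the p-values measure only the spread between these libraries.

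Chemokines are small secreted proteins that guide leukocytes through G-protein-coupled receptors. CCL3, CCL4 and CCL5 attract T cells, monocytes and natural killer cells, and CCL3 and CCL5 bind CCR1. CCL17 and CCL22 share the receptor CCR4 of regulatory and type 2 helper T cells, CXCL9 and CXCL10 are interferon-induced ligands of CXCR3, and CXCL16 is made as a membrane-bound protein that binds CXCR6. In CLL, secretion of CCL3 and CCL4 is known to follow stimulation of the B-cell receptor, whose signal passes through both kinases inhibited here, and CCL17 and CCL22 are known to follow CD40 stimulation.

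The genes of 3 pairs are neighbours on the genome (GENCODE annotation of GRCh38). CCL3 (chromosome 17, 36088256 to 36090169, minus strand) and CCL4 (chromosome 17, 36103827 to 36105621, plus strand) lie 13.7 kb apart. CCL22 (chromosome 16, 57358783 to 57366189, plus strand) and CCL17 (chromosome 16, 57404767 to 57416063, plus strand) are separated by 38.6 kb. CXCL9 (chromosome 4, 76001275 to 76007509, minus strand) and CXCL10 (chromosome 4, 76021118 to 76023497, minus strand) are separated by 13.6 kb. CCL5 (chromosome 17, 35871491 to 35880793, minus strand) is 207 kb from CCL3, and CXCL16 (chromosome 17, 4733533 to 4739928, minus strand) lies elsewhere on the same chromosome.

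The RefSeq promoter table (GRCh38.p14) held windows for 4 of the 8 genes, CCL3, CCL22, CXCL9 and CXCL10, while CCL4, CCL5, CCL17 and CXCL16 were not among its entries. The 250 bases before each start are shown for all 4 of these genes, whatever their response to the drugs. Each is printed 5′ to 3′ on the strand of its gene, with capitals for matches on either strand to 5 motifs. These were the kappaB motif, searched as GGGANNNNCC, the interferon-stimulated response element (ISRE), searched as GAAANNGAAA, the interferon-gamma-activated sequence, searched as TTCNNNGAA, the AP-1 motif, searched as TGANTCA, and the TATA box, searched as TATAAA.
CXCL9, chr4:76007510-76007759, minus strand: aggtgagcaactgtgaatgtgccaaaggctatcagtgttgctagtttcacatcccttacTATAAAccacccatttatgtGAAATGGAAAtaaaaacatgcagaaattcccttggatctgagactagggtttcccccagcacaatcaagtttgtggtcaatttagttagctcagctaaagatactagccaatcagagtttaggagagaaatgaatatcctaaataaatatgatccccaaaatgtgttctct
CXCL10, chr4:76023498-76023747, minus strand: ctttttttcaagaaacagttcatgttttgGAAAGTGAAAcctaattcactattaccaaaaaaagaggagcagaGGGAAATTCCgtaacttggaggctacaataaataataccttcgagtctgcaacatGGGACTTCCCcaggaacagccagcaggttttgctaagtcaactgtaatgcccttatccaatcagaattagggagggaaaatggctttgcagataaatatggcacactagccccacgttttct
CCL22, chr16:57358533-57358782, plus strand: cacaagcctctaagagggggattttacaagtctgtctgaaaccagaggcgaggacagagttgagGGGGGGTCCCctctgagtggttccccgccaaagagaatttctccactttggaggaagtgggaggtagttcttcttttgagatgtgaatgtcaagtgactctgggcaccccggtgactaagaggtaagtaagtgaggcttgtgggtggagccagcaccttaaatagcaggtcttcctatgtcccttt
CCL3, chr17:36090144-36090393, minus strand: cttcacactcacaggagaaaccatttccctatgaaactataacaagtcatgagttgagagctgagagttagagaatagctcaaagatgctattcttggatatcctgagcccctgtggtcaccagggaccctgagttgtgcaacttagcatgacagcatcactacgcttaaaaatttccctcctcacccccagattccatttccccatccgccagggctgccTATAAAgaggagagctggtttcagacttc

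Counted from the first base printed, the ISRE letters were present once before CXCL9 (bases 80 to 89) and once before CXCL10 (bases 30 to 39), against 3.02% of 35116 promoter windows of this length. The kappaB letters were found at 2 places before CXCL10 (bases 74 to 83 and 129 to 138) and, on the opposite strand, at 1 place before CCL22 (bases 65 to 74), with 22.6% of all windows holding them. The TATA box letters, present in 10.7% of windows, stood at bases 222 to 227 before CCL3, close to its start, and at bases 60 to 65 before CXCL9. Neither the interferon-gamma-activated sequence (6.57% of windows) nor the AP-1 letters (6.57%) matched in these 4 windows. No matches of different motifs overlapped, and a match describes the letters only.

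Library totals ranged from 26590705 to 53538925 estimated counts, with a median of 42114145. Levels are given as CPM (counts scaled to library size), adjusted within each line by the trimmed mean of M-values (TMM), with n = 3 libraries per group throughout. All 6 B-cell markers exceeded 1 CPM in each line.

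The summed levels of marker lists moved with the treatments. The 6 B-cell markers summed to 1191–1204 CPM in JVM2 DMSO and 630–690 CPM with fludarabine, and to 1570–1624 and 886–994 CPM in the same groups of EHEB. In MEC1 the sum was 995.1–1050 CPM in DMSO, 885–891 CPM with fludarabine, 1665–1843 CPM with ibrutinib and 1682–1761 CPM with idelalisib. TRAC had the highest values among the 6 T-cell markers, with CD3D at 0 in MEC1 and JVM2 and CD2 and CD3E up to 12.1 and 5.46 CPM in EHEB. Their sum in DMSO was 37.03–42.8 CPM in MEC1, 55.4–59.5 CPM in JVM2 and 49.9–54.4 CPM in EHEB, and with the 2 kinase inhibitors, under which CCL5 was lower too, it was 16.9–21.6 CPM in MEC1, 38.3–43.2 CPM in JVM2 and 23.7–30.3 CPM in EHEB. With fludarabine it was 51.7–59.8 CPM in MEC1, 35.2–42.2 CPM in JVM2 and 44.1–58.8 CPM in EHEB. The 6 NK-cell markers summed to 2.58 to 85.9 CPM, lowest in JVM2 with fludarabine and highest in MEC1 with idelalisib.

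Of the 6 monocyte or macrophage markers at most 2 passed 1 CPM in any line, ITGAM contributed most, LYZ was at 0 in EHEB and CD163 at 0 in MEC1 and EHEB. With fludarabine their sum was 25.6–29.3 CPM in MEC1, against 6.90–8.60 CPM in DMSO, 39.3–40.4 CPM in JVM2, against 10.6–13.6, and 53.4–63.8 CPM in EHEB, against 20.1–24.5. It was also above DMSO with ibrutinib and idelalisib in MEC1 (29.9–33.3 and 43.0–45.9 CPM) and in JVM2 (17.1–18.8 and 36.04–39.4 CPM), while in EHEB it was 21.6–23.9 and 23.4–27.2 CPM. Among the 6 dendritic-cell markers CLEC10A was at 0 in every line and LAMP3 made up most of the sum in JVM2 and EHEB. With fludarabine that sum was 474–526 CPM in JVM2, against 217–248 CPM in DMSO, 531–616 CPM in EHEB, against 241–248, and 11.3–13.6 CPM in MEC1, against 8.03–8.31. Each line is a single established B-cell line, and the part of these markers in the results was not tested. In bulk RNA a change in every cell and a change in the share of cells expressing a gene cannot be told apart.

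The first question was how strongly each line transcribed the chemokines without drug. CCL3 was the highest of the 8 in all 3 lines when levels were expressed per kilobase of transcript and scaled over all 36 libraries. It reached 471 ± 2.94 CPM per kb (SD) in JVM2, 446 ± 6.48 in EHEB and 60.3 ± 5.25 in MEC1. In MEC1 it was followed by CCL22 (33.8 ± 1.10 CPM per kb), CCL5 (21.8 ± 1.497), CCL4 (18.9 ± 1.77), CXCL10 (4.24 ± 0.925), CXCL16 (0.919 ± 0.0455), CCL17 (0.302 ± 0.113) and CXCL9 (0.219 ± 0.111), and the libraries of the last 2 overlapped. The order in JVM2 was CCL22 (108 ± 1.46 CPM per kb), CCL4 (80.3 ± 1.00), CCL5 (6.85 ± 0.471), CXCL16 (1.74 ± 0.187), CXCL10 (0.558 ± 0.427) and CXCL9 (0.0182 ± 0.0316), with CCL17 at 0 in all 3 libraries. CXCL9 had counts in only 1 of the JVM2 libraries, and so did not separate from CCL17. In EHEB, CCL4 (198 ± 11.4 CPM per kb) stood above CCL22 (75.7 ± 2.24), CCL5 (26.6 ± 3.53), CXCL10 (15.3 ± 1.33), CXCL9 (1.40 ± 0.196), CXCL16 (0.435 ± 0.0805) and CCL17 (0.0978 ± 0.169). No pair of neighbours in that order overlapped.

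**Figure D1:**
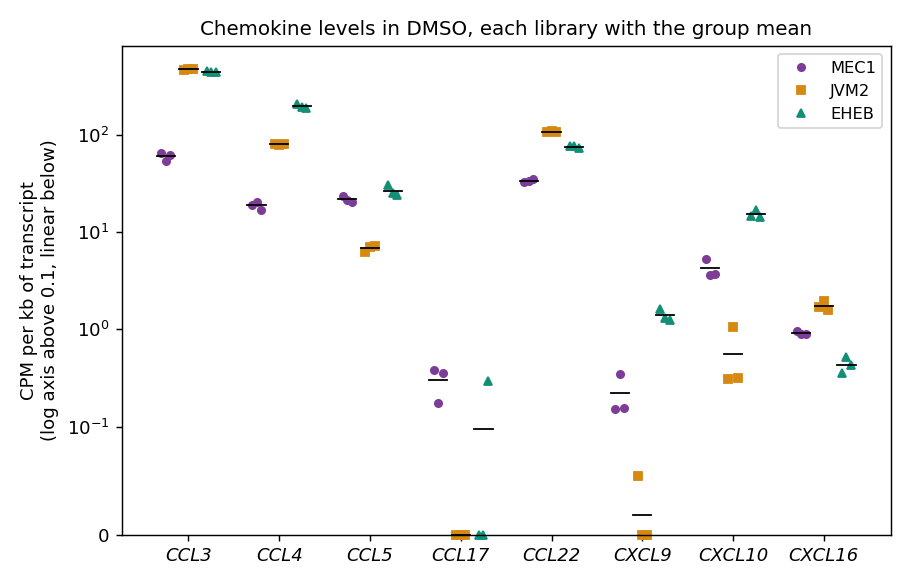
Levels of the 8 chemokines in the DMSO libraries of the 3 lines, in CPM per kilobase of transcript on an axis that is logarithmic above 0.1 and linear below; points are libraries and bars are group means. CCL3 is the highest gene in every line, CXCL9 and CXCL10 are lowest in JVM2, and CCL17 sits at 0 in JVM2.

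Between lines, 7 chemokines were tested in the DMSO libraries, as CCL17 was under the filter on low counts. In JVM2 against MEC1, 4 were higher and 3 lower (all genes: 33.7% higher and 30.1% lower). In EHEB against MEC1, 6 were higher and 1 lower (35.8% and 31.6%), and in EHEB against JVM2, 4 were higher and 2 lower (29.9% and 29.6%). The median log2 difference of the 7 genes was 0.92, 1.87 and 1.32 in the 3 comparisons, against 0.02, 0.05 and 0.00 over all genes. CCL3 exceeded MEC1 by a log2 difference of 2.98 (SE 0.07) in JVM2 and 2.92 (SE 0.07) in EHEB, and did not pass the test between EHEB and JVM2 (log2 difference −0.06, SE 0.06). CXCL10 was lower in JVM2 than in MEC1 (log2 difference −2.81, SE 0.40) and higher in EHEB than in MEC1 (1.87, SE 0.35). CXCL16 had the reverse order, being highest in JVM2 and lowest in EHEB, with log2 differences from MEC1 of 0.92 (SE 0.19) and −1.02 (SE 0.19). The CCL5 difference between EHEB and MEC1, 0.32 (SE 0.11, edgeR adjusted p = 0.0256), was not called without MEC1 DMSO library 2 or 3 or EHEB DMSO library 1 (adjusted p 0.0736 to 0.0900), nor with library size scaling (0.116) or in the joint fit (0.0995). Without JVM2 DMSO library 2, CXCL10 in JVM2 differed from MEC1 by −3.58 and EHEB from JVM2 by 5.45 instead of 4.68, and without JVM2 DMSO library 1 the CXCL9 differences of −2.80 and 5.40 became −3.77 and 6.37, with JVM2 at 0. The JVM2 against MEC1 call for CXCL16 was lost in the joint fit of all libraries (adjusted p = 0.0505).

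The next question was what fludarabine did to these transcripts. In MEC1, 7 of the 8 genes rose and none fell, while 21.2% of all tested genes were called higher and 22.7% lower. In JVM2, 4 of 8 rose and none fell (23.9% and 23.3% of all genes), and in EHEB again 4 rose and none fell (18.4% and 19.2%). The median log2 fold change of the chemokines was 1.39 in MEC1, 1.26 in JVM2 over the 7 genes with counts, and 1.40 in EHEB, against medians of 0.05, 0.06 and 0.02 over all genes. CXCL9 and CXCL10 were the genes called higher in all 3 lines, though CXCL9 passed the filter on low counts in JVM2 only through its fludarabine libraries. CCL17, counted as higher in MEC1 and EHEB, passed that filter there only through drug groups.

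**Figure D2:**
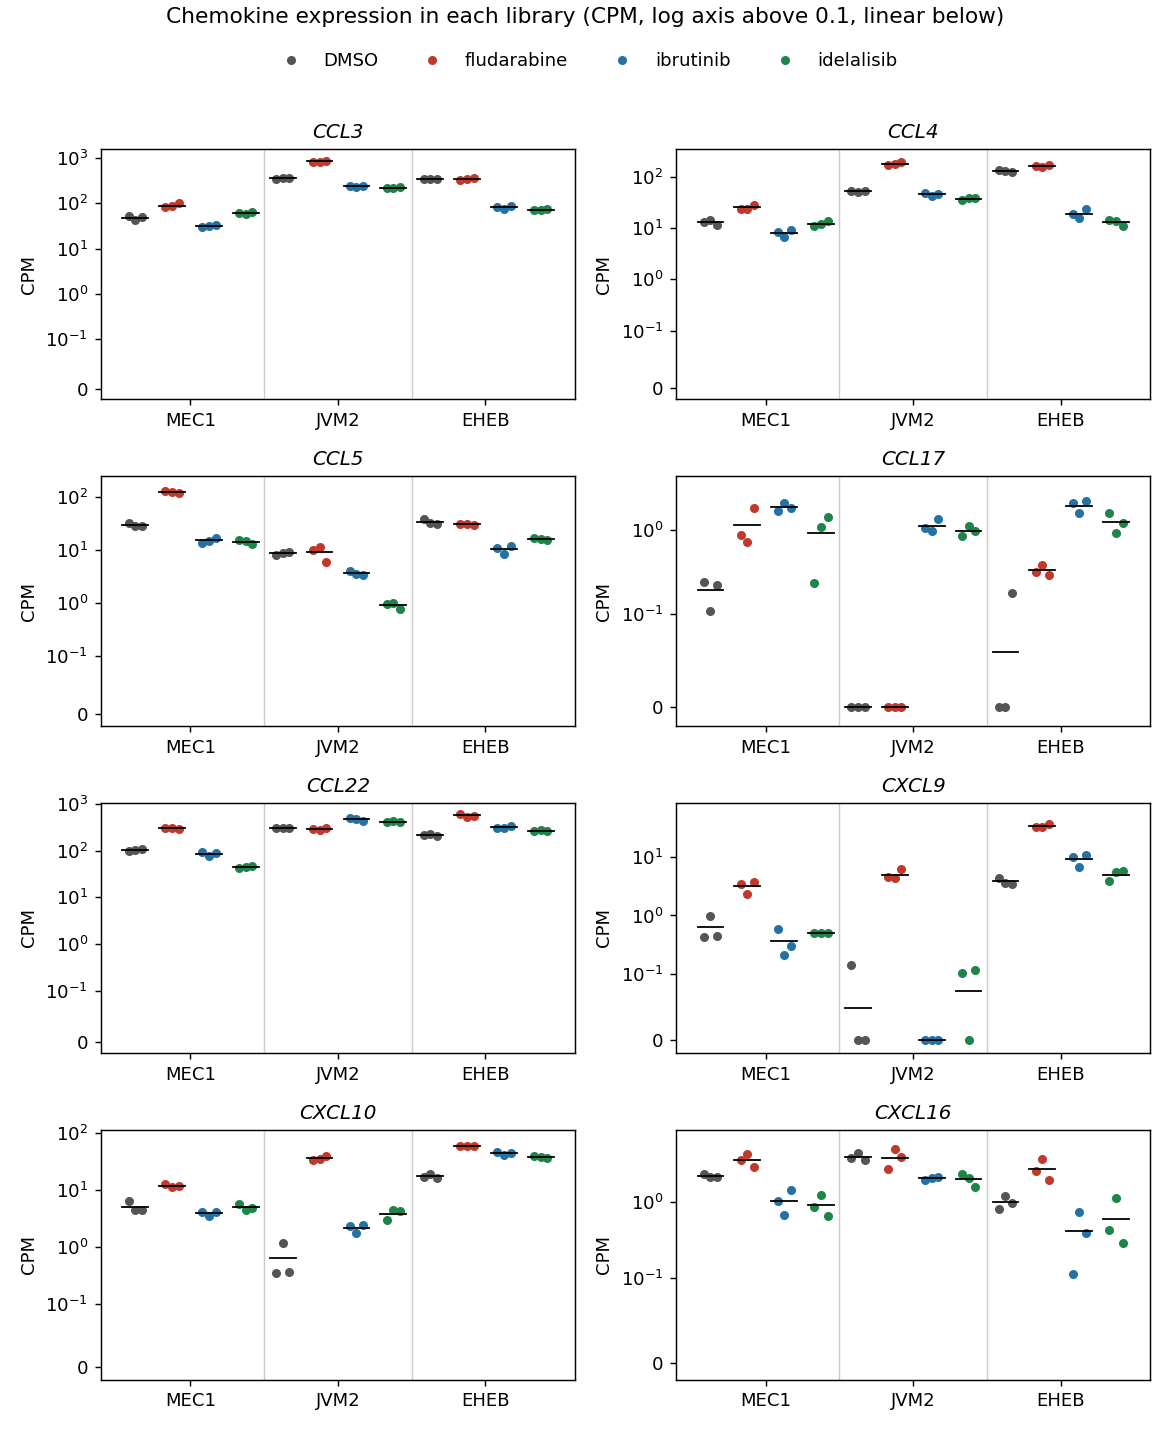
CPM of each chemokine in the 36 libraries, by line and treatment, on axes that are logarithmic above 0.1 and linear below; points are libraries and black bars group means. Fludarabine libraries (red) lie above DMSO (grey) for CXCL9 and CXCL10 in every line, while CCL5 lies lower with ibrutinib (blue) and idelalisib (green) and CCL17 higher, apart from 1 MEC1 idelalisib library that overlaps DMSO.

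CXCL10, the interferon-induced CXCR3 ligand, was at 0.353, 1.20 and 0.358 CPM in the JVM2 DMSO libraries and at 34.5, 35.6 and 40.7 CPM with fludarabine. In MEC1 it went from 6.45, 4.45 and 4.57 CPM to 12.7, 11.6 and 11.98, and in EHEB from 16.9, 19.5 and 16.7 CPM to 59.0, 59.7 and 60.1. Every fludarabine library was above every DMSO library of its line. The log2 fold change was 5.74 (SE 0.38, edgeR adjusted p = 4.29e-07) in JVM2, 1.22 (SE 0.15, 7.28e-05) in MEC1 and 1.75 (SE 0.07, 3.02e-08) in EHEB. JVM2 DMSO library 2 held 50 of the 78 CXCL10 counts of its group, and without it the JVM2 value was 6.52.

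CXCL9, its neighbour and a second CXCR3 ligand, had 5, 0 and 0 counts in the JVM2 DMSO libraries and 201, 197 and 261 with fludarabine, or 4.502, 4.28 and 6.07 CPM. In EHEB the levels were 4.40, 3.58 and 3.42 CPM in DMSO and 32.0, 32.4 and 35.7 CPM with the drug, and in MEC1 they were 0.438, 0.992 and 0.451 CPM against 3.45, 2.31 and 3.74 CPM. The groups did not overlap in any line. The log2 fold change was 3.12 (SE 0.20, adjusted p = 4.34e-07) in EHEB and 2.24 (SE 0.40, 0.000912) in MEC1. The fitted value of 5.79 in JVM2 (SE 0.81, adjusted p = 0.000342) rests on 5 counts in DMSO library 1, without which the DMSO group was at 0 and the fitted value 6.76, so that its size depends on the prior count. Only the fludarabine group carried CXCL9 past the filter on low counts in JVM2, so the p-value there gives no separate support for the rise.

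CCL3 and CCL4, neighbouring genes whose products attract T cells and monocytes, rose in MEC1 and JVM2 but were not called in EHEB. CCL3 in JVM2 stood at 356, 358 and 356 CPM in DMSO and at 839, 827 and 888 CPM with fludarabine, a log2 fold change of 1.26 (SE 0.04, adjusted p = 1.71e-09). In MEC1 it moved from 52.2, 43.9 and 49.9 CPM to 83.0, 86.8 and 99.8 CPM (0.88, SE 0.09, 1.52e-05). EHEB, with 347, 341 and 339 CPM in DMSO, gave 330, 340 and 360 CPM with the drug, overlapping libraries and a log2 fold change of 0.00 (SE 0.06, 0.963).

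CCL4 followed CCL3 in direction. Its JVM2 levels were 51.8, 50.6 and 51.8 CPM in DMSO and 166, 175 and 190.8 CPM with fludarabine, and in MEC1 they were 13.1, 14.0 and 11.6 CPM and then 23.0, 23.7 and 28.5 CPM. The drug groups were clear of DMSO in both lines, with log2 fold changes of 1.79 (SE 0.07, adjusted p = 8.85e-09) and 0.95 (SE 0.14, 0.000188). In EHEB the 3 fludarabine libraries (159, 155 and 166 CPM) lay above the DMSO libraries (136, 127 and 122 CPM), but the log2 fold change of 0.32 (SE 0.13, 0.0710) was not called. It was called without EHEB ibrutinib library 2 (0.0398) or 3 (0.0354) and by limma-voom (0.00950), DESeq2 (0.0309) and 4 further settings.

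CCL5, a T-cell attractant that binds CCR1 and CCR3, was called in MEC1 and in neither other line. It went from 31.5, 28.7 and 27.7 CPM in MEC1 DMSO to 128, 123 and 119 CPM with fludarabine, a log2 fold change of 2.07 (SE 0.10, adjusted p = 1.31e-07). JVM2 had 7.99, 8.83 and 9.09 CPM in DMSO and 9.85, 11.1 and 5.88 CPM with the drug, while EHEB had 38.99, 32.3 and 30.6 CPM and 30.9, 31.1 and 29.2 CPM. The groups overlapped in both of these lines, where the log2 fold changes were 0.05 (SE 0.20) and −0.16 (SE 0.13).

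CCL22, a CCR4 ligand that attracts regulatory T cells, rose in MEC1 and EHEB. MEC1 went from 98.6, 102 and 106 CPM to 305, 298 and 293 CPM, a log2 fold change of 1.55 (SE 0.08, adjusted p = 1.32e-07). EHEB went from 220, 222 and 210 CPM to 614, 534 and 553 CPM (1.38, SE 0.07, 6.76e-08). In JVM2 the level was 302, 308 and 304 CPM in DMSO and 284, 279 and 298 CPM with fludarabine, and the log2 fold change of −0.09 (SE 0.06, 0.235) was not called.

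CCL17, the second CCR4 ligand, was scarce. In MEC1 and EHEB only drug groups carried it past the filter on low counts. Its p-values there thus give no separate support for a rise. It had 10, 5 and 8 counts in MEC1 DMSO and 30, 28 and 56 with fludarabine, or 0.193 ± 0.0722 and 1.15 ± 0.616 CPM (SD), a log2 fold change of 2.30 (SE 0.56, adjusted p = 0.00612). In JVM2 all 6 libraries were at 0 counts. EHEB DMSO had 0, 0 and 8 counts and fludarabine 9, 13 and 11, and the log2 fold change of 1.76 (SE 0.61, adjusted p = 0.0412) was a borderline call. It was lost when any of 11 of the 12 EHEB libraries was left out (adjusted p 0.0516 to 0.0980), with no filter (0.0577) and in the fit of 6 libraries (0.124), and without DMSO library 3, the only one with counts, the DMSO group was at 0 and the fitted value 2.83.

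CXCL16, the CXCR6 ligand, was not called with fludarabine in any line. Its MEC1 libraries were at 2.34, 2.16 and 2.14 CPM in DMSO and 3.57, 4.29 and 2.85 CPM with the drug, and its EHEB libraries at 0.816, 1.18 and 0.978 CPM and then 2.53, 3.71 and 1.93 CPM. The groups were apart in these 2 lines, yet the log2 fold changes of 0.68 (SE 0.29, adjusted p = 0.0801) and 1.41 (SE 0.55, 0.0650) missed the threshold. In JVM2 the groups overlapped (3.82, 4.38 and 3.56 against 2.69, 4.93 and 3.88 CPM). The MEC1 value was called under 4 other settings, limma-voom among them (0.0295), and the EHEB value by limma-voom (0.0166), DESeq2 (0.0372) and 3 further settings, as well as without ibrutinib library 1 or 2 or idelalisib library 2 (0.0338 to 0.0489).

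**Figure D3:**
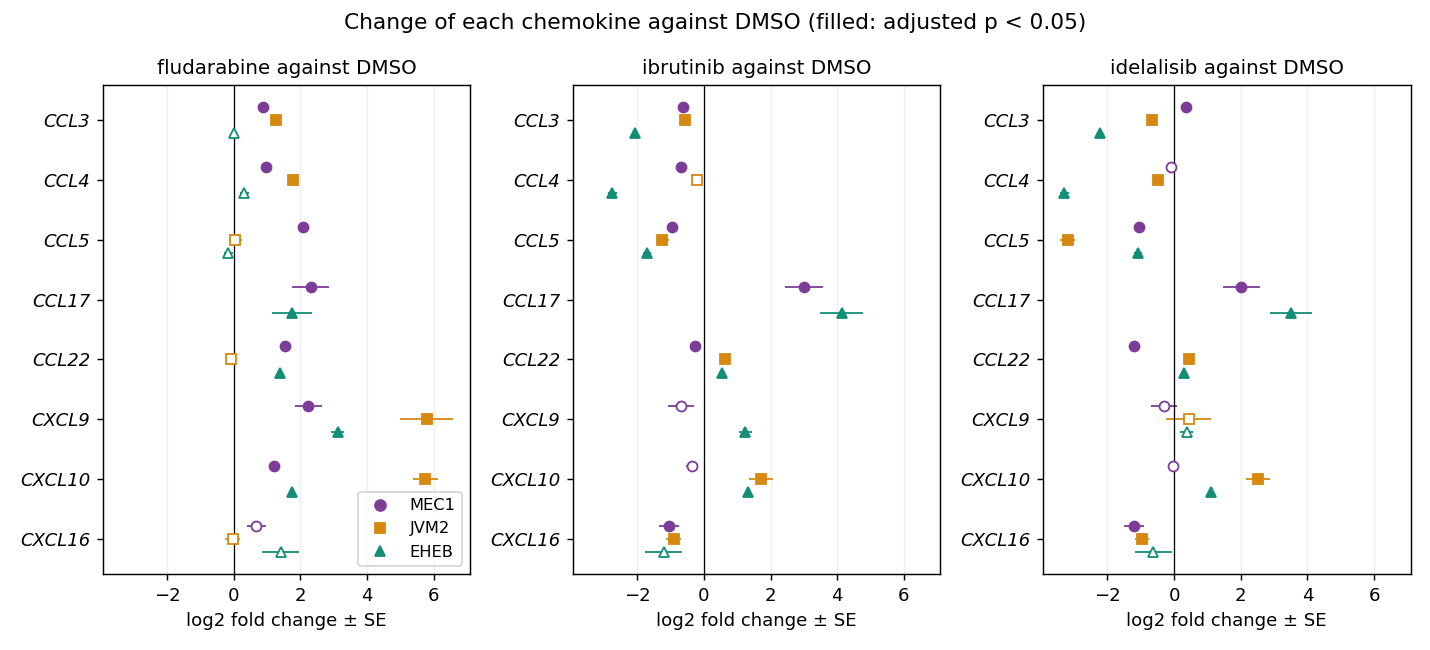
Log2 fold change (± SE) of each chemokine against DMSO in MEC1 (circles), JVM2 (squares) and EHEB (triangles), 1 panel per drug; filled symbols have an edgeR adjusted p below 0.05, and no symbol is drawn where all libraries of a group were at 0. CXCL9 and CXCL10 are to the right with fludarabine in all lines, CCL5 to the left with both kinase inhibitors, and the 2 drugs lowered CCL3 and CCL4 most in EHEB.

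The kinase inhibitors gave changes in both directions. With ibrutinib, 1 of the 8 genes was higher and 5 lower in MEC1 (all genes: 23.7% and 23.9%), 3 higher and 3 lower in JVM2 (14.5% and 15.0%) and 4 higher and 3 lower in EHEB (8.50% and 11.2%). With idelalisib, 2 were higher and 3 lower in MEC1 (27.6% and 27.4%), 3 higher and 4 lower in JVM2 (21.6% and 22.6%) and 3 higher and 3 lower in EHEB (15.1% and 18.2%). CCL5 was lower and CCL17 higher in each of these 6 comparisons, which share their DMSO libraries within a line. In JVM2, CCL17 passed the filter on low counts only through the inhibitor groups, and in MEC1 and EHEB only through drug groups. The median log2 fold change with ibrutinib was −0.65 in MEC1, −0.38 in JVM2 over 6 genes (−0.19 with CCL17 at its bound) and −0.34 in EHEB. With idelalisib it was −0.20, −0.47 over 7 genes (−0.02 with CCL17 at its bound) and −0.16, while all-gene medians lay between 0.00 and 0.08 for both drugs.

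CCL3 and CCL4 fell most in EHEB. CCL3, at 347, 341 and 339 CPM in EHEB DMSO, was at 85.1, 74.0 and 87.2 CPM with ibrutinib and 71.8, 72.3 and 75.9 CPM with idelalisib. The log2 fold changes were −2.06 (SE 0.06, adjusted p = 7.67e-08) and −2.22 (SE 0.07, 1.03e-08). CCL4 in the same libraries went from 128 ± 7.22 CPM to 18.7, 15.6 and 22.8 CPM with ibrutinib and 14.4, 13.8 and 10.96 CPM with idelalisib, log2 fold changes of −2.75 (SE 0.14, 9.04e-07) and −3.29 (SE 0.14, 5.49e-08). No inhibitor library reached the DMSO range of either gene.

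In JVM2 the same genes changed less. CCL3 went from 357 ± 1.41 CPM to 242, 236 and 248 CPM with ibrutinib and 219, 220 and 231 CPM with idelalisib, log2 fold changes of −0.56 (SE 0.04, adjusted p = 5.49e-06) and −0.67 (SE 0.04, 2.95e-07). CCL4 was lowered by idelalisib, from 51.4 ± 0.716 CPM to 34.5, 38.7 and 38.1 CPM (−0.47, SE 0.07, 0.000253). With ibrutinib it was at 47.2, 41.6 and 46.1 CPM, and the log2 fold change of −0.19 (SE 0.07, 0.0588) was not called, but it was called by DESeq2 (0.0433) and with near-identical gene copies summed (0.0298).

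MEC1 was the line in which the 2 inhibitors moved CCL3 in opposite directions. From 48.7 ± 4.26 CPM in DMSO it went to 30.1, 31.5 and 33.5 CPM with ibrutinib and 62.3, 58.1 and 65.2 CPM with idelalisib, below and above every DMSO library. The log2 fold changes were −0.62 (SE 0.09, adjusted p = 0.000183) and 0.35 (SE 0.09, 0.00670). CCL4 fell with ibrutinib, to 8.42, 6.69 and 9.01 CPM from 12.9 ± 1.19 CPM (−0.68, SE 0.14, 0.00175), and with idelalisib its 11, 11.7 and 13.7 CPM overlapped DMSO (−0.09, SE 0.14, 0.602).

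CCL5 was lower with both inhibitors in all 3 lines. JVM2 with idelalisib had the largest change, from 8.64 ± 0.571 CPM to 0.956, 0.990 and 0.776 CPM, a log2 fold change of −3.19 (SE 0.22, adjusted p = 1.10e-06), and with ibrutinib the line had 3.91, 3.55 and 3.36 CPM (−1.25, SE 0.20, 0.000970). In EHEB the level of 34.0 ± 4.45 CPM went to 10.9, 8.35 and 11.8 CPM with ibrutinib (−1.70, SE 0.13, 1.10e-05) and 16.6, 16.3 and 15.1 CPM with idelalisib (−1.08, SE 0.13, 6.89e-05). MEC1 went from 29.3 ± 1.97 CPM to 13.3, 15.0 and 17.1 CPM with ibrutinib and 15.2, 14.7 and 12.8 CPM with idelalisib, with log2 fold changes of −0.95 (SE 0.10, 1.47e-05) and −1.04 (SE 0.10, 5.13e-06). No inhibitor library of any line overlapped DMSO.

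CCL17 was higher with both inhibitors in all 3 lines, though at low counts. In JVM2, where DMSO was at 0 in all 3 libraries, ibrutinib gave 55, 33 and 56 counts and idelalisib 32, 46 and 51 counts. Set against a floor of 3 counts per DMSO library, the levels of 1.13 ± 0.205 and 0.983 ± 0.131 CPM were at least 14.9-fold and at least 13.0-fold higher (adjusted p = 0.000150 and 7.10e-05). CCL17 passed the filter on low counts in JVM2 only through these inhibitor groups, and in MEC1 and EHEB only through drug groups. The p-values for CCL17 in all 3 lines therefore give no separate support for the rise. EHEB went from 0, 0 and 8 counts to 93, 52 and 97 with ibrutinib and 45, 43 and 38 with idelalisib, with fitted log2 fold changes of 4.14 (SE 0.64, 0.00116) and 3.50 (SE 0.63, 0.00143), or 5.23 and 4.59 without DMSO library 3, which left that group at 0. MEC1 had 84, 88 and 85 counts with ibrutinib (log2 fold change 2.995, SE 0.57, 0.00114). With idelalisib it had 8, 46 and 56 counts (2.01, SE 0.55, 0.00934), of which the first library overlapped DMSO, and limma-voom did not call this change (0.0640).

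CCL22, the abundant CCR4 ligand, fell in MEC1 and rose in the other lines. In MEC1 it went from 102 ± 3.50 CPM to 43.0, 43.4 and 46.1 CPM with idelalisib (log2 fold change −1.21, SE 0.08, adjusted p = 2.34e-07) and to 94.4, 75.9 and 86.7 CPM with ibrutinib (−0.25, SE 0.07, 0.0150). The second of these was not called with library size scaling (0.0779) or in the fit of 6 libraries (0.0521). JVM2 went from 305 ± 3.39 CPM to 510, 465 and 439 CPM with ibrutinib and 411, 434 and 401 CPM with idelalisib, log2 fold changes of 0.63 (SE 0.06, 2.23e-05) and 0.45 (SE 0.06, 7.56e-05). EHEB went from 217 ± 6.19 CPM to 301, 298 and 343 CPM (0.53, SE 0.07, 0.000244) and 268, 271 and 264 CPM (0.30, SE 0.07, 0.00438). Every inhibitor library in JVM2 and EHEB was above the DMSO libraries.

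CXCL10 also rose in JVM2 and EHEB. The JVM2 libraries were at 2.31, 1.80 and 2.46 CPM with ibrutinib and 2.98, 4.44 and 4.27 CPM with idelalisib, against 0.636 ± 0.485 CPM in DMSO, log2 fold changes of 1.70 (SE 0.36, adjusted p = 0.00489) and 2.52 (SE 0.36, 0.000191), or 2.48 and 3.29 without DMSO library 2. EHEB had 47.2, 42.0 and 45.1 CPM with ibrutinib and 39.7, 38.5 and 37.2 CPM with idelalisib, against 17.7 ± 1.54 CPM in DMSO (1.34, SE 0.07, 1.56e-06, and 1.12, SE 0.07, 9.21e-07). In MEC1 the levels of 3.97 ± 0.329 and 5.02 ± 0.594 CPM were not called against 5.15 ± 1.12 CPM in DMSO (adjusted p = 0.0665 and 0.842), although the ibrutinib difference was called without DMSO library 2 (log2 fold change −0.47, 0.0413). Its neighbour CXCL9 was called in 1 comparison, EHEB with ibrutinib, where 9.80, 6.67 and 10.6 CPM stood against 3.80 ± 0.526 CPM in DMSO (1.24, SE 0.19, 0.000955).

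CXCL9 in EHEB with idelalisib (3.84, 5.37 and 5.59 CPM) overlapped DMSO and was not called (0.38, SE 0.19, 0.155). In JVM2 it had 0 counts in the 3 ibrutinib libraries and 4, 0 and 6 with idelalisib, levels at which no difference from DMSO was detectable. MEC1 had 0.5999, 0.214 and 0.305 CPM with ibrutinib and 0.504, 0.497 and 0.507 CPM with idelalisib, overlapping the DMSO libraries, and the ibrutinib difference was called only without ibrutinib library 1 (−1.14, adjusted p = 0.0396).

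CXCL16 was lower with both inhibitors in MEC1 and JVM2. MEC1 went from 2.21 ± 0.107 CPM to 1.02, 0.667 and 1.44 CPM with ibrutinib (log2 fold change −1.05, SE 0.30, adjusted p = 0.0124) and 0.860, 1.25 and 0.659 CPM with idelalisib (−1.21, SE 0.30, 0.00504). JVM2 went from 3.92 ± 0.418 CPM to 1.95, 2.098 and 2.14 CPM and 2.34, 2.08 and 1.57 CPM, with log2 fold changes of −0.91 (SE 0.22, 0.00988) and −0.96 (SE 0.22, 0.00456), both lost in the joint fit of all libraries (0.107 and 0.0598). In EHEB, counts of 5 to 51 per inhibitor library gave −1.21 (SE 0.56, 0.166) and −0.63 (SE 0.55, 0.425), of which the joint fit called the first (0.0442).

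Idelalisib and ibrutinib libraries come from the same number series and were compared directly, with doses that differ. In MEC1, 2 of the 8 genes were higher with idelalisib and 1 lower (all genes: 6.01% and 9.37%). In JVM2 none were higher and 3 lower (8.21% and 10.5%), and in EHEB 1 was higher and 3 lower (6.77% and 9.09%). The median log2 difference was 0.12 in MEC1, −0.18 in JVM2 over 7 genes and −0.22 in EHEB, against 0.00, 0.01 and 0.00 over all genes. CCL22 was lower with idelalisib in all 3 lines, with log2 differences of −0.96 (SE 0.07, adjusted p = 0.000322) in MEC1, −0.18 (SE 0.06, 0.0423) in JVM2 and −0.23 (SE 0.07, 0.0353) in EHEB.

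**Figure D4:**
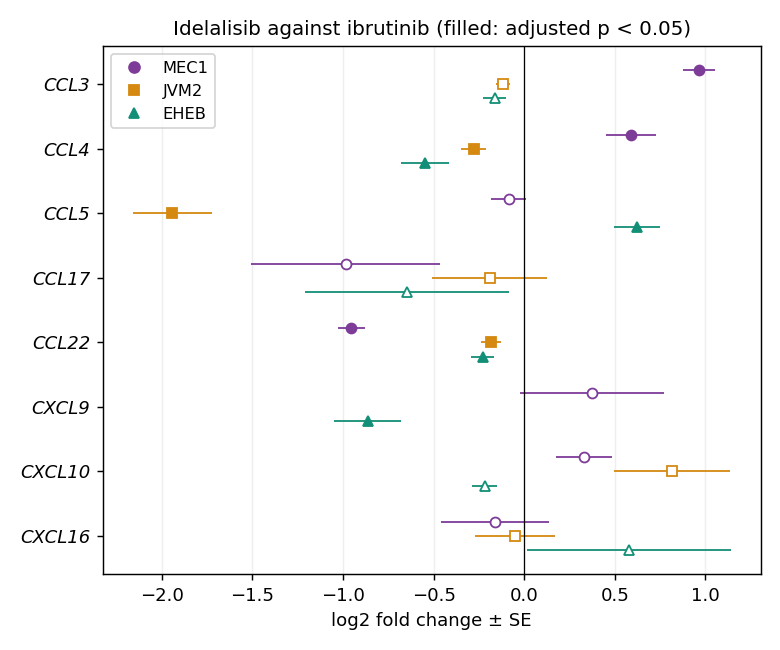
Log2 fold change (± SE) of each chemokine with idelalisib against ibrutinib in MEC1 (circles), JVM2 (squares) and EHEB (triangles); filled symbols have an edgeR adjusted p below 0.05. CCL3 and CCL4 are higher with idelalisib in MEC1, and CCL5 is lower with idelalisib in JVM2 and higher in EHEB.

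CCL5 differed in opposite directions, being lower with idelalisib in JVM2 (log2 difference −1.94, SE 0.22, adjusted p = 0.000153) and higher in EHEB (0.62, SE 0.13, 0.00699). CCL3 was higher with idelalisib in MEC1 (0.96, SE 0.09, 0.000582), as was CCL4 (0.59, SE 0.14, 0.0151), while CCL4 was lower in JVM2 (−0.28, SE 0.07, 0.0179) and EHEB (−0.55, SE 0.13, 0.0161), and CXCL9 was lower in EHEB (−0.86, SE 0.19, 0.00903). Several calls with smaller differences were lost when 1 library was left out or under other settings. The CCL22 call was lost without any of 6 libraries in JVM2 (adjusted p up to 0.139) and any of 8 in EHEB (up to 0.122), and under 5 other settings in JVM2 (0.0669 to 0.0871) and 2 in EHEB (0.0676 and 0.0776). CCL4 was not called without MEC1 ibrutinib library 1 (0.0525) or idelalisib library 3 (0.0770), without JVM2 ibrutinib library 1 (0.0678) or idelalisib library 1 (0.0537), and without EHEB ibrutinib library 3 (0.0593) or idelalisib library 3 (0.0692). It was also lost in the fit of 6 libraries in MEC1 (0.0507) and EHEB (0.0865), and in JVM2 with library size scaling (0.0540) and in the joint fit (0.134). The CXCL9 call in EHEB was lost in the fit of 6 libraries (0.0511) and in the joint fit of all libraries (0.123).

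Whether a drug acted alike in the 3 lines was tested by the line by treatment interaction. It was called for 7 of the 8 chemokines with fludarabine (39.1% of all genes), 6 with ibrutinib (33.6%) and 6 with idelalisib (45.7%). The exceptions were CCL17 with fludarabine and ibrutinib, CXCL16 with both kinase inhibitors and CXCL9 with idelalisib. CCL22, raised by fludarabine in MEC1 and EHEB and lowered by kinase inhibitors in MEC1 alone, was called for each drug (edgeR adjusted p = 3.47e-10, 2.98e-05 and 6.84e-11). The calls for CXCL9 with ibrutinib (0.0448) and CCL17 with idelalisib (0.0422) involved groups at 0 in JVM2.

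CCL3 and CCL4 have near-identical copies, CCL3L3 and CCL4L2, between which reads can be split, so their levels are uncertain by that amount. CCL3L3 lay at 3.76 to 39.6 CPM and CCL4L2 at 1.79 to 15.8 CPM as group means. In EHEB both copies fell with ibrutinib (log2 fold change −1.95, SE 0.26, and −3.04, SE 0.30) and idelalisib (−1.26, SE 0.25, and −3.11, SE 0.31), as CCL3 and CCL4 did. With fludarabine in EHEB, CCL4L2 fell from 15.8 ± 2.78 to 8.82 ± 1.25 CPM (−0.84, SE 0.28, adjusted p = 0.0338) while CCL4 was at 128 ± 7.22 and 160 ± 5.72 CPM. On the opposite strand CXCL16 overlaps MED11, with a median of 243 counts, and since no source states that the counting used strand, reads of the 2 cannot be told apart. ART3, which overlaps CXCL10, had a median of 0 counts.

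Receptors and scavengers of these chemokines formed a list of 10 genes, of which 9 were tested in MEC1 and 7 in JVM2 and in EHEB. With fludarabine 6 were higher and none lower in MEC1, 1 and 0 in JVM2 and 1 and 1 in EHEB. With ibrutinib the counts were 3 and 2 in MEC1, 3 and 0 in JVM2 and 2 and 2 in EHEB, and with idelalisib 5 and 2, 4 and 0 and 2 and 2. For this list and the next 3, the all-gene shares called higher and lower with fludarabine were 21.2% and 22.7% in MEC1, 23.9% and 23.3% in JVM2, and 18.4% and 19.2% in EHEB. With ibrutinib these shares were 23.7% and 23.9%, 14.5% and 15.0%, and 8.50% and 11.2% in that order of lines, and with idelalisib 27.6% and 27.4%, 21.6% and 22.6%, and 15.1% and 18.2%. ACKR1, a scavenger that binds several of these ligands, was called higher in 7 of 9 comparisons with DMSO and changed most in JVM2 with idelalisib, from 0.450 ± 0.230 to 9.12 ± 0.229 CPM (log2 fold change 4.19, SE 0.28). CXCR3, the receptor of CXCL9 and CXCL10, rose in MEC1 with fludarabine from 7.68 ± 1.28 to 25.2 ± 0.708 CPM (1.71, SE 0.12), with 5 calls higher and 3 lower in all. CXCR6, the CXCL16 receptor, was called once, in MEC1 with idelalisib (1.35, SE 0.30), and CCR8 was higher in 5 of 6 comparisons, in EHEB with ibrutinib by 1.12 (SE 0.23). List medians ranged from −0.43 in EHEB with idelalisib to 1.59 in MEC1 with fludarabine.

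Of 12 genes for proteins that store, cleave or modify chemokines, 10 were tested in MEC1 and EHEB and 9 in JVM2. With fludarabine 6 were higher and 1 lower in MEC1, 4 and 4 in JVM2 and 5 and 3 in EHEB. With ibrutinib the counts were 2 and 1, 1 and 2, and 1 and 3 in the same order of lines, and with idelalisib 2 and 1, 2 and 3, and 0 and 3. SDC4, a heparan sulphate proteoglycan, rose with fludarabine in MEC1 from 0.589 ± 0.227 to 7.39 ± 0.501 CPM (log2 fold change 3.55, SE 0.28). The related SDC1 rose in EHEB from 18.3 ± 0.594 to 55.7 ± 4.21 CPM (1.60, SE 0.12) and was lower in 5 other comparisons. DPP4, a peptidase that trims chemokines, fell in JVM2 with fludarabine (−1.03, SE 0.16), and CD44 rose in MEC1 with it (1.01, SE 0.20). Over 9 comparisons SDC4 was called higher in 4 and lower in 1, DPP4 in 1 and 3, and CD44 in 3 and 0. Their medians ranged from −0.29 to 0.37.

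All 22 transcription factors and regulators linked to chemokine transcription were tested in each line. Those higher and lower with fludarabine numbered 6 and 5 in MEC1, 11 and 5 in JVM2 and 7 and 8 in EHEB. With ibrutinib the numbers were 6 and 11, 6 and 5, and 5 and 8, and with idelalisib 3 and 15, 7 and 3, and 5 and 8. IRF1, an interferon-induced factor, rose with fludarabine in JVM2 from 75.7 ± 4.34 to 255 ± 13.7 CPM (log2 fold change 1.75, SE 0.06, adjusted p = 5.45e-09), and was called higher in 5 and lower in 2 of 9 comparisons. BCL6, a B-cell repressor, had 3 to 33 counts in the JVM2 DMSO libraries and rose to 12 ± 1.36 CPM with the drug (4.59, SE 0.75), with 3 calls higher and 4 lower over the 9 comparisons with DMSO. EGR1, an early response gene downstream of the B-cell receptor, fell with ibrutinib in MEC1 from 7.15 ± 0.936 to 0.471 ± 0.411 CPM (−3.76, SE 0.59) and was lower in 6 and higher in 1 of 9 comparisons. PRDM1, the plasma-cell factor, fell with idelalisib in MEC1 from 13.0 ± 1.89 to 3.27 ± 1.54 CPM (−1.98, SE 0.30), with 2 calls higher and 5 lower. The median over the 22 genes was lowest in MEC1 with idelalisib, at −0.69, and highest in JVM2 with fludarabine, at 0.23.

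A list of 40 other chemokine genes had 38 in the table, and 14 were tested in MEC1, 12 in JVM2 and 19 in EHEB. Among those tested in each line were CCL3L3 and CCL4L2, so the counts and medians of this list are not separate from CCL3 and CCL4. Fludarabine had 5 higher and none lower in MEC1, 4 and 2 in JVM2 and 11 and 5 in EHEB, and the medians of 1.26, 0.44 and 1.66 were over 14, 11 and 17 genes with counts in both groups. Ibrutinib gave 0 and 5, 1 and 3, and 3 and 9, and idelalisib 1 and 2, 0 and 4, and 3 and 8, with medians between −0.68 and −0.09. CXCL8, which attracts neutrophils, had 0 to 15 counts per library in EHEB DMSO and 19.0 ± 2.33 CPM with fludarabine (log2 fold change 6.08, SE 0.55), with 2 calls higher and 1 lower over 9 comparisons. CCL1, the CCR8 ligand, rose in the same libraries from 0.857 ± 0.148 to 37.2 ± 2.88 CPM (5.36, SE 0.41), and was called higher in 2 and lower in 2 of 6 comparisons. XCL1, which attracts dendritic cells through XCR1, fell with ibrutinib in MEC1 from 1.67 ± 0.422 to 0.0333 ± 0.0577 CPM (−4.33, SE 0.56) and was lower in 6 and higher in 2 of 9 comparisons.

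Genes whose pattern was most like that of a chemokine were found from the mean log2 CPM of the 12 groups, each line centred on its own mean, among 15181 genes tested in all lines. The 12 groups share lines, their libraries differ in depth, and the values describe likeness only. CCL3 and CCL4 were each other's nearest gene (Pearson r = 0.977, Spearman rho = 0.965), followed by GRAMD2B for CCL3 (r = 0.939) and AGK for CCL4 (r = 0.941). CXCL9 and CXCL10 had r = 0.881 with each other, below PAPLN (0.967) for CXCL9 and FICD (0.950) and WDR25 (0.948) for CXCL10. The neighbours CCL17 and CCL22 had r = 0.266, and CCL17 and CCL3 had r = −0.721. CCL5 was nearest to SOWAHA (0.966) and HLA-DPA1 (0.964), CCL17 to ZBED5-AS1 (0.966) and KIF26B (0.965), CCL22 to TNIP2 (0.957) and SPAG1 (0.951), and CXCL16 to LILRA4 (0.989) and NR4A1 (0.974). By Spearman rho GRAMD2B was number 63 for CCL3 and WDR25 number 94 for CXCL10. Each other gene named here as nearest or next nearest by Pearson r was among the first 14 for its chemokine.

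Scaling by library size in place of TMM moved the median log2 fold change of all genes with fludarabine by 0.24, 0.20 and 0.10 in MEC1, JVM2 and EHEB, by −0.17 for idelalisib against ibrutinib in MEC1, and by −0.12 and −0.11 for the DMSO libraries of JVM2 and EHEB against MEC1. The share of all called genes that were higher with fludarabine was 48.4% with TMM and 74.1% with library size in MEC1, 50.6% and 69.1% in JVM2, and 48.9% and 61.8% in EHEB. For ibrutinib it was 49.1% and 62.2% in JVM2, and 43.1% and 65.4% in EHEB, and for idelalisib 48.8% and 59.5% in JVM2, and 45.3% and 59.6% in EHEB. In MEC1 that share fell from 39.1% to 11.3% for idelalisib against ibrutinib. No chemokine change that was called under either scaling had its direction turned.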

How the data were processed

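Total RNA was depleted of ribosomal RNA before sequencing. Per the labels, the authors trimmed reads with Trimmomatic, aligned them to hg38 with HISAT2 2.1 and assembled gene abundances with StringTie 1.3.4. The deposited values were estimated counts per gene symbol, stored as whole numbers, of which low ones are spaced about 8/3 apart. A row with no symbol (0.00384% of counts) was left out. TMM scaling, the low-count filter (filterByExpr, minimum count 10, minimum total 15) and quasi-likelihood F-tests were run with edgeR 4.0.16 in R 4.3.3 on the 12 libraries of each line, the 18 libraries of a drug and DMSO for interactions, and the 9 DMSO libraries. A gene was called at a Benjamini-Hochberg adjusted p below 0.05 over all genes tested (17516 in MEC1, 17508 in JVM2, 17748 in EHEB). CPM values used the same scaling, and log2 CPM a prior count of 2. A group at 0 was set against 3 counts per library. The tests were checked on simulated data. DESeq2 1.42.0 and limma-voom 3.58.1 were alternatives, and 2 alternatives (counts divided by 8/3, near-identical copies summed) were chosen after seeing the data. The chemokines and lists were chosen with earlier results of these data known. Named were all 8 members, the 2 genes most like each (1 is not reported here), and up to 4 genes per list with the largest called change without overlap and an average log2 CPM of at least 1.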

Additional observations from a re-analysis of the deposited data

Results flagged for a closer look

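The line by treatment interaction asked whether a drug changed a chemokine by unequal amounts in MEC1, JVM2 and EHEB, and each value here is the range of the 3 log2 fold changes, with the edgeR adjusted p. Results in which a group of JVM2 libraries was at 0 are left out. In these differences an effect of the line and one of its exposure time cannot be told apart.

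With fludarabine the range was 4.49 for CXCL10 (adjusted p = 3.24e-07) and 3.51 for CXCL9 (0.00069), in both cases with the largest rise in JVM2, the line with the lowest DMSO level. It was 2.3 for CCL5 (1.21e-06), which rose in MEC1, and 1.66 for CCL22 (3.47e-10), which rose in MEC1 and EHEB. CCL4 spanned 1.51 (3.39e-07), CCL3 1.29 (1.57e-07) and CXCL16 1.4 (0.0183), the last of which was not called in the joint fit of all libraries (0.107). Without JVM2 DMSO library 2 the CXCL10 range was 5.25. The CXCL9 range rests on 5 counts in JVM2 DMSO library 1. Without that library the CXCL9 range was 4.41 with the DMSO group at 0, so its size depends on the prior count.

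With ibrutinib CCL4 spanned 2.57 (adjusted p = 1.91e-07) and CCL3 1.51 (6.63e-08), both with the largest fall in EHEB. CXCL10 spanned 2.1 (0.00141), or 2.88 without JVM2 DMSO library 2, and CCL22 0.906 (2.98e-05). The range of 0.742 for CCL5 (0.0185) was not called without EHEB DMSO library 1 (0.0575).

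With idelalisib the ranges were 3.16 for CCL4 (adjusted p = 6.83e-10), 2.52 for CCL3 (5.3e-11), 2.62 for CXCL10 (0.000351), 2.09 for CCL5 (5.41e-08) and 1.72 for CCL22 (6.84e-11). CCL3 was called higher in MEC1 and lower in JVM2 and EHEB. Without JVM2 DMSO library 2 the CXCL10 range was 3.38.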

How the results depend on the processing

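Over 132 chemokine results and 9 other settings, 1079 of 1128 values kept their direction and their side of the threshold, 24 calls were lost and 25 gained. With 1 library left out, 1594 of 1641 values did so, and no called value was reversed under any of these settings. Several counts moved by more than 1.5 times. For idelalisib against DMSO in MEC1 the stricter filter called 3 of the 5 genes it kept, where 5 of 8 were called, since fewer genes were tested. For idelalisib against ibrutinib the count went from 3 to 1 in JVM2 with library size scaling and from 4 to 1 in EHEB in the fit of 6 libraries, which has fewer libraries to estimate the spread. Leaving out 1 library gave 1 to 4 genes in JVM2 and 2 to 5 in EHEB. In the same comparison in MEC1 the count over all genes, 2694, was 4345 with library size scaling, 1504 in the fit of 6 libraries and 1376 to 2885 with 1 library left out, and the cause was not tested. No paired analysis was possible because the groups share no library numbers. Spearman rho in place of Pearson r changed the order of the genes most like a chemokine, with GRAMD2B at number 63 for CCL3 and WDR25 at number 94 for CXCL10. Depth limits CCL17 in every line and CXCL9 in JVM2, where DMSO libraries held 0 to 10 counts.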
